A study of Mus musculus with 9 samples.

Results

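Pancreatic beta cells hold a small group of genes low that most other tissues express, and these are called beta cell disallowed genes. The set described here was chosen by name from that literature, with earlier results of these data known: Ldha, Slc16a1, Hk1, Hk2, Acot7, Oat, Igfbp4, Mgst1, Lmo4 and Smad3. These 10 genes were found among 56941 gene identifiers, and all 10 were among the 18548 genes with enough counts to test. Islets, the hormone-secreting clusters of the pancreas, came from wild-type (WT) male C57BL/6J mice that were 15 weeks old when their diets began and lasted 9 months. There were 3 libraries on the low fat control diet with 10% fat (LFD), 2 on the high fat diet with 60% fat (HFD) and 4 on the ketogenic diet with 89.9% fat (KD). The comparison asks how the KD changes islet transcripts. Every mouse carried the same genotype, so diet was the only labelled difference. The labels do not say whether a library held islets of 1 mouse or of several, so p-values measure only the spread between libraries.

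A beta cell releases insulin in proportion to the glucose it burns. High-affinity hexokinases work at full rate already at low glucose, and a beta cell keeps them low. Pyruvate goes to the mitochondria when lactate dehydrogenase A (Ldha) is low, and a low level of the monocarboxylate transporter MCT1 (Slc16a1) keeps circulating pyruvate and lactate from entering and triggering insulin release during exercise.

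The sequences just upstream of 4 members are shown because these are the lactate pair and the members with the largest KD differences from LFD in either direction, Hk2 and Mgst1. Each is the 250 bases before the first start that RefSeq lists, on the gene's own strand and in build GRCm38.p6: chr7:46845554-46845803 on the plus strand for Ldha, chr3:104638414-104638663 on the plus strand for Slc16a1, chr6:82774455-82774704 on the minus strand for Hk2 and chr6:138140277-138140526 on the plus strand for Mgst1. Capitals mark every match, on either strand, to CACGTG (the palindromic E-box), ACGTG (the core of the hypoxia response element, which also lies within CACGTG on both strands) or TGACNNNGC (the core of the antioxidant response element).
Ldha: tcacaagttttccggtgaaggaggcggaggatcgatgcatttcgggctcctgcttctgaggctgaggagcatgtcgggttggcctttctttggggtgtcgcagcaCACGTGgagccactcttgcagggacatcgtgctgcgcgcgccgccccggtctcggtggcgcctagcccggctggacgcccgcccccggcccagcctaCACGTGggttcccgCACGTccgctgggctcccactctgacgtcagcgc
Slc16a1: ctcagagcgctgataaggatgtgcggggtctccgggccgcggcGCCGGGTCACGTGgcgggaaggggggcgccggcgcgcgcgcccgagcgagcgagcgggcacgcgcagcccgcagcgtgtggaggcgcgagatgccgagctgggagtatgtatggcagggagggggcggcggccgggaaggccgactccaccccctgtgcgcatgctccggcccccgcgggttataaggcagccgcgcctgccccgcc
Hk2: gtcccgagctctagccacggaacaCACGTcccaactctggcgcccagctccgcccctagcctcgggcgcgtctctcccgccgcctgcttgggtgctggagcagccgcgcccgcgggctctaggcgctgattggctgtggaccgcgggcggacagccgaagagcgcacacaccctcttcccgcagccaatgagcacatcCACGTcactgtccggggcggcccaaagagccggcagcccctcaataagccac
Mgst1: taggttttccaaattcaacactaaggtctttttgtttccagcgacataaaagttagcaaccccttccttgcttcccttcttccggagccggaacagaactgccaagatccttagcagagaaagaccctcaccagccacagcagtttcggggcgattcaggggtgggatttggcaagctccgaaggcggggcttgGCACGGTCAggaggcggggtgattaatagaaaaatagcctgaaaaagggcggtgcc

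All 10 members matched the promoter table, and the counts that follow use only the first start listed for each. CACGTG was present upstream of 2 of the 10 (Ldha and Slc16a1), against 6.02% of 32841 promoter windows of the same length. ACGTG was present upstream of 3 of the 10 (Ldha, Slc16a1 and Hk2), against 16.6% of windows. TGACNNNGC was present upstream of 2 of the 10 (Slc16a1, where it overlaps the E-box, and Mgst1), against 10.2% of windows. At later listed starts, Lmo4 also held ACGTG and Hk1 also held TGACNNNGC. The windows were 67.2% G or C for Ldha, 76.4% for Slc16a1, 69.6% for Hk2 and 52.0% for Mgst1, against a median of 52.4% over all windows. The background shares were not matched for this and count every listed start. These matches describe the letters of the windows and were not tested for binding.

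Library totals ran from 15513502 to 26588390 counts. Counts of a member in a library ran from 40 (the lowest for Hk2) to 946 (the highest for Igfbp4), and levels are given as CPM, counts relative to the TMM-scaled library size. The TMM factors ran from 0.542 to 1.5, so the order of libraries can differ between CPM and raw counts. Islet preparations carry other pancreatic cells. Genes of a 22-gene acinar list, led by Ctrb1, a digestive protease, took 10.9% to 34.1% of all counts in the LFD and HFD libraries and 58.4%, 43.1%, 54.3% and 19.8% in KD replicates 1 to 4. A 16-gene beta cell list, led by Ins2, took 5.95%, 7.68% and 9.84% in LFD replicates 1 to 3, 13.3% and 12.0% in HFD replicates 1 and 2, and 1.80%, 5.32%, 3.05% and 13.2% in KD replicates 1 to 4. The beta cell genes were thus present in every library, and KD replicates 1 and 3 stood apart with most of their counts in acinar genes. In bulk RNA, fewer cells of a type and less RNA per cell cannot be told apart, and the cell type behind a member's counts was not measured. The labels used here name no isolation or sequencing batch, which therefore cannot be told apart from diet.

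For their length, the members were not at the floor of these islet libraries. Over the 9 libraries, Oat had the highest mean level per length at 10.5 CPM per kilobase of exon, above 86.7% of 18047 genes with a length. Ldha followed at 6.82, Igfbp4 at 6.74 and Mgst1 at 6.09 CPM per kilobase. Smad3 stood at 3.13, Acot7 at 3.02, Lmo4 at 2.47, Hk2 at 1.85, Hk1 at 1.51 and Slc16a1 at 1.10 CPM per kilobase, the last above 32.9% of genes. Of the 9 neighbouring pairs in that order, 3 were separated by more than 1 SD of their log2 ratio over libraries. Oat was above Ldha in 9 of 9 libraries, Mgst1 above Smad3 in 8 of 9 and Hk1 above Slc16a1 in 8 of 9. The other neighbours did not differ by more than 1 SD, although Acot7 was above Lmo4 in 8 of 9 libraries and Lmo4 above Hk2 in 8 of 9.

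Ldha, the enzyme that turns pyruvate into lactate, was at 37.1, 35.0 and 10.9 CPM in LFD replicates 1 to 3, at 13.5 and 17.3 in HFD replicates 1 and 2, and at 34.1, 20.9, 22.4 and 12.1 in KD replicates 1 to 4. The groups overlapped: LFD replicate 3 was the lowest of all 9 libraries, and the other two LFD libraries were the highest. KD differed from LFD by -0.31 on the log2 scale (SE 0.43, edgeR adjusted p = 0.710), with a 95% interval from -1.27 to 0.65. HFD differed from LFD by -0.84 (SE 0.52, edgeR adjusted p = 0.605), so no direction could be told for Ldha. Its pseudogenes could share reads with it: Ldha-ps2 held 1.80% as many counts.

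Slc16a1, which encodes MCT1, was at 3.99, 5.20 and 2.35 CPM on LFD, at 3.55 and 3.14 on HFD, and at 6.46, 7.40, 7.39 and 4.53 on KD, in replicate order. In CPM, KD replicates 1 to 3 lay above every LFD and HFD library, while KD replicate 4 lay below LFD replicate 2. This order depends on the scaling. As a share of raw counts, KD replicate 1 (83 of 23746412) lay below HFD replicates 1 (71 of 16312630) and 2 (75 of 15898599). The mean was 3.84 ± 1.43 CPM (SD, n = 3) on LFD, 3.35 ± 0.289 (SD, n = 2) on HFD and 6.44 ± 1.35 (SD, n = 4) on KD. The KD difference from LFD was 0.74 on the log2 scale (SE 0.30), with an unadjusted p of 0.0287 that did not pass after Benjamini-Hochberg adjustment in edgeR (adjusted p = 0.169). Against HFD it was 0.94 (SE 0.34, edgeR adjusted p = 0.154), and those groups did not overlap in CPM. Over the 9 libraries, the Pearson r of Slc16a1 with the mean log2 CPM of the acinar list was 0.85 (Spearman rho = 0.87).

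The closest relatives of the lactate pair were read per length. Ldhb, the heart-type subunit of lactate dehydrogenase, stood at 7.91 ± 1.37, 6.69 ± 0.807 and 5.38 ± 1.15 CPM per kilobase on LFD (n = 3), HFD (n = 2) and KD (n = 4), beside 8.35 ± 4.40, 4.64 ± 0.813 and 6.76 ± 2.73 for Ldha. The Ldha level per kilobase exceeded that of Ldhb in 4 of 9 libraries (LFD replicates 1 and 2, KD replicates 1 and 3), and the ratio ran from 0.361 to 1.84. Slc16a7, the MCT2 transporter, was above Slc16a1 per kilobase in 7 of 9 libraries, at 2.82 ± 1.38 against 1.46 ± 0.305 CPM per kilobase on KD (n = 4). Slc16a3, the MCT4 lactate exporter of glycolytic tissues, stood at 0.171 ± 0.141, 0.149 ± 0.0550 and 0.0702 ± 0.0655 CPM per kilobase on LFD, HFD and KD. For KD against LFD, edgeR called 4.12% of all genes, and 22.7% had an unadjusted p below 0.05, shares to set beside each list that follows. Of 11 other genes tested on the lactate and pyruvate list, 0 were called by edgeR and 1 by DESeq2 for KD against LFD, 3 had an unadjusted p below 0.05, and the list's median log2 fold change was 0.18 against -0.02 over all genes. Those 3 were the pyruvate carboxylase gene Pc at 0.53 (SE 0.16, edgeR adjusted p = 0.0773), Ldhb at -0.55 (SE 0.21, edgeR adjusted p = 0.146) and Bsg, the MCT chaperone, at 0.32 (SE 0.14, edgeR adjusted p = 0.196).

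Hk1 and Hk2 encode high-affinity hexokinases. Hk2, the form that responds most to growth and metabolic signals in other tissues, was at 11.1, 7.17 and 3.24 CPM on LFD, at 3.85 and 1.68 on HFD, and at 27.3, 11.3, 27.3 and 6.54 on KD, in replicate order. In CPM, KD replicates 1 and 3, the libraries with the largest acinar shares, were the highest by more than 2-fold, and KD replicate 4 lay within the LFD range. As a share of raw counts, KD replicates 1 (351 of 23746412) and 3 (306 of 18161887) were also the highest. They then exceeded LFD replicate 1 (181 of 15513502) by less than 2-fold. The mean was 7.17 ± 3.93 CPM (SD, n = 3) on LFD, 2.76 ± 1.54 (n = 2) on HFD and 18.1 ± 10.8 (n = 4) on KD. The KD difference was 1.33 on the log2 scale against LFD (SE 0.59, edgeR adjusted p = 0.219) and 2.71 against HFD (SE 0.75, edgeR adjusted p = 0.124), a 6.53-fold difference between groups that did not overlap. Without KD replicates 1 and 3, a choice made after their acinar shares were seen, the difference from LFD was 0.32. With the acinar score in the model it was 0.041. Over the 9 libraries, the Pearson r of Hk2 with the mean log2 CPM of the acinar list was 0.98. Hk2 had the widest spread of the members within a diet, with an SD of 0.94 on the log2 scale against a median of 0.34 over all genes tested.

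Hk1, the constitutive hexokinase, was at 16.5, 15.9 and 10.1 CPM on LFD, at 11.0 and 9.18 on HFD, and at 14.6, 16.4, 12.2 and 9.86 on KD. The diets overlapped, and the KD difference from LFD was -0.09 on the log2 scale (SE 0.22, edgeR adjusted p = 0.839, 95% interval -0.58 to 0.39). HFD against LFD gave -0.49 (SE 0.27, edgeR adjusted p = 0.564). Per kilobase, Hk1 was above Hk2 in 7 of 9 libraries. The exceptions were KD replicates 1 and 3, where the Hk2 level was 2.67 and 3.19 times that of Hk1.

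Relatives of these hexokinases were also read per length. Hk3, a hexokinase of blood cells, stood at 0.198 ± 0.140, 0.116 ± 0.0293 and 0.0855 ± 0.0514 CPM per kilobase on LFD (n = 3), HFD (n = 2) and KD (n = 4), and Hkdc1, a related hexokinase domain gene, at 0.882 ± 0.284, 0.331 ± 0.180 and 0.546 ± 0.222. Of 10 other genes tested on the hexose phosphorylation list, edgeR called 0 and DESeq2 0 for KD against LFD, 2 had an unadjusted p below 0.05 (against 22.7% of all genes), and the median log2 fold change was -0.48.

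**Figure D1:**
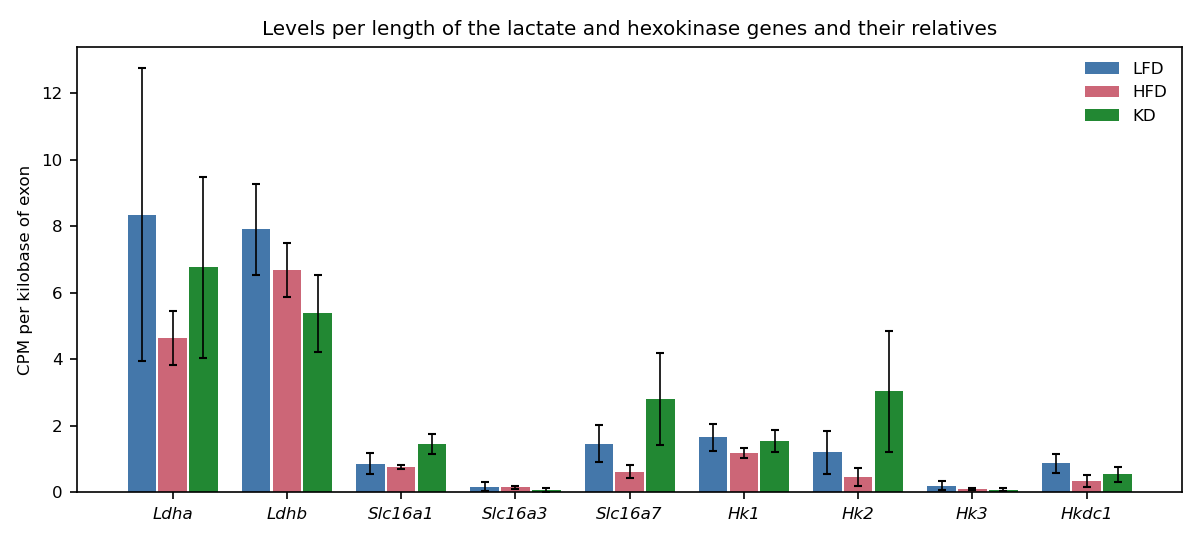
Mean level per length of the lactate and hexokinase members beside their relatives, in CPM per kilobase of exon (linear axis from 0), with bars for LFD (n = 3), HFD (n = 2) and KD (n = 4) and error bars of 1 SD. Hk3 and Hkdc1 stand below Hk1 on every diet, and the Hk2 bar is highest on KD with the widest error of the hexokinase genes.

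Mgst1, a microsomal glutathione transferase that detoxifies reactive lipids and lipid peroxides at the endoplasmic reticulum and the outer mitochondrial membrane, fell on KD. It was at 15.6, 19.3 and 17.96 CPM in LFD replicates 1 to 3, at 12.6 and 10.5 in HFD replicates 1 and 2, and at 10.9, 9.53, 6.86 and 6.95 in KD replicates 1 to 4. Every KD and HFD library lay below every LFD library, while KD replicate 1 lay between the HFD libraries. The mean was 17.6 ± 1.86 CPM (SD, n = 3) on LFD, 11.6 ± 1.48 (n = 2) on HFD and 8.56 ± 1.99 (n = 4) on KD. The KD level was 0.485 times the LFD level, a log2 fold change of -1.04 (SE 0.19, 95% interval -1.47 to -0.62, edgeR adjusted p = 0.0185). Mgst1 was the only member of the 10 that edgeR called for KD against LFD, and among all tested genes 3.14% were called lower, 0.981% higher and 4.12% in either direction. It was also the only member called in the joint test over the 3 diets (edgeR adjusted p = 0.0422), in which 2.17% of genes were called.

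Mgst1 had the smallest spread of the members within a diet, an SD of 0.26 on the log2 scale. HFD against LFD gave -0.61 (SE 0.23, edgeR adjusted p = 0.446) and KD against HFD gave -0.43 (SE 0.22, edgeR adjusted p = 0.264), neither past the threshold. The KD call was lost without LFD replicate 2 (-0.97, edgeR adjusted p = 0.0652) and without KD replicate 3 (-0.96, edgeR adjusted p = 0.0586). It was also lost without both KD replicates 1 and 3 (-1.10, edgeR adjusted p = 0.0746), although the difference was as large.

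Markers of some other cells moved with Mgst1. Over the 9 libraries, its Pearson r with the mean log2 CPM of a marker list was 0.87 for lymphocytes and 0.75 for fibroblasts and stellate cells. It was 0.69 for duct cells and 0.62 for macrophages. The other lists ran from -0.39 (alpha cells) to 0.41 (delta and pancreatic polypeptide cells), with endothelial cells at 0.087. The summed level of a 12-gene lymphocyte list, led by the immunoglobulin gene Ighm, was 518, 1256 and 69.6 CPM in LFD replicates 1 to 3, 56.7 and 74.3 in HFD replicates 1 and 2, and 27.3, 11.9, 6.95 and 12.9 in KD replicates 1 to 4. Of those 12 genes, 11 were called lower on KD than on LFD, and 8 were at 0 in at least 1 library. Leaving out KD replicate 3 lowered that count to 5, KD replicate 2 to 6 and KD replicate 1 to 7, and leaving out LFD replicate 1 or LFD replicate 2 gave 6 of 9 tested. It was 2 without KD replicates 1 and 3 together. The lymphocyte sum of LFD replicate 3 lay between those of the HFD libraries. A 13-gene fibroblast and stellate list, led by Rgs5, summed to 911, 723 and 467 CPM on LFD, 666 and 525 on HFD, and 531, 455, 243 and 403 on KD, with 0 of 13 called by edgeR, 2 by DESeq2 and 5 at an unadjusted p below 0.05. Of 12 duct genes, 3 were called lower on KD, among them Spp1, the most abundant, and the list summed to 712 to 886 CPM on LFD, 495 to 520 on HFD and 571 to 763 on KD. Every KD duct sum lay above both HFD sums. A 12-gene macrophage list, led by Lyz2, summed to 143, 143 and 80.6 CPM on LFD, 99.9 and 133 on HFD, and 68.1, 69.9, 42.2 and 77.3 on KD, so every KD library lay below every LFD library. Of those 12 genes, 11 lay below 0 for KD against LFD, edgeR called 1 lower, 6 had an unadjusted p below 0.05 (against 22.7% of all genes), and DESeq2 called 3. With a lymphocyte score in the model the Mgst1 difference was -0.72 (edgeR adjusted p = 0.568), and 0 of all genes were then called by edgeR (2459 at an unadjusted p below 0.05). All 12 lymphocyte genes were lower in every KD library than in every LFD library. That score therefore nearly follows diet, and the model cannot well separate score from diet. With an acinar score it was -1.18 (edgeR adjusted p = 0.0102). The part of the fibroblast, stellate, macrophage and duct cells in the result was not tested.

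Of 9 other glutathione transferase and MAPEG family genes tested, edgeR called 1 higher and 0 lower on KD than on LFD, 3 had an unadjusted p below 0.05 (against 22.7% of all genes), and DESeq2 called 1. This was Gsto1, an omega-class transferase, at 8.22 ± 0.922 CPM on LFD (n = 3) and 15.8 ± 4.89 on KD (n = 4), a log2 fold change of 0.94 (SE 0.24, edgeR adjusted p = 0.0490). The edgeR call was lost with DESeq2 size factors (adjusted p = 0.0522), with TMM scaling without acinar and hormone genes (adjusted p = 0.0514) and with only the groups compared (adjusted p = 0.0763). With the acinar score in the model the difference was 0.49 (edgeR adjusted p = 0.143). The list's median log2 fold change was 0.01.

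Acot7 encodes a cytosolic thioesterase that splits long-chain acyl-CoA. It was at 5.33, 7.30 and 4.08 CPM on LFD, at 3.75 and 4.57 on HFD, and at 11.0, 11.4, 7.39 and 2.96 on KD. KD replicates 1 to 3 were the highest of the 9 libraries and KD replicate 4 the lowest. The KD difference from LFD was 0.55 on the log2 scale (SE 0.40, edgeR adjusted p = 0.445) and turned to -0.12 with the acinar score in the model. Of 8 other thioesterase genes tested, edgeR called 0 and DESeq2 2 for KD against LFD, 4 had an unadjusted p below 0.05 (against 22.7% of all genes), and the median was 0.53. The lowest p belonged to Acot11, at 0.64 (SE 0.16, edgeR adjusted p = 0.0520).

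Oat, the mitochondrial ornithine aminotransferase that links ornithine to glutamate and proline, was at 37.5, 30.1 and 19.2 CPM on LFD, at 16.8 and 16.01 on HFD, and at 33.1, 21.9, 29.8 and 18.5 on KD. Both HFD libraries lay below all others, and the LFD and KD libraries overlapped. The HFD difference from LFD was -0.82 on the log2 scale (SE 0.30, unadjusted p = 0.0191, edgeR adjusted p = 0.429), and the KD difference from LFD was -0.16 (SE 0.24, edgeR adjusted p = 0.729). In GENCODE M21 the Oat gene lies within the span of Fgfr2 on the same strand, and Fgfr2 held 78.1% as many counts, so how reads there were assigned could matter. Of 14 other ornithine, polyamine and proline genes tested, edgeR called 2 higher and 0 lower on KD than on LFD, against 0.981% and 3.14% of all genes. An unadjusted p below 0.05 was found for 9, against 22.7% of all genes, and DESeq2 called 5. Oaz1, 1 of the 2 called by edgeR, encodes the antizyme that marks ornithine decarboxylase for degradation and went from 76.1 ± 8.85 CPM (n = 3) to 126 ± 11.4 (n = 4), a change of 0.73 (SE 0.14, edgeR adjusted p = 0.0220). The list's median was 0.62.

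Igfbp4, a secreted protein that binds insulin-like growth factors, was at 44.1, 42.4 and 18.2 CPM on LFD, at 36.8 and 32.9 on HFD, and at 35.8, 26.9, 11.0 and 19.6 on KD. The HFD libraries lay inside the LFD range, and KD replicate 3 was the lowest of the 9. The KD difference from LFD was -0.58 on the log2 scale (SE 0.39, edgeR adjusted p = 0.405), and HFD against LFD gave -0.0013 (SE 0.46, edgeR adjusted p = 0.999). The Pearson r of Igfbp4 with the mean log2 CPM of the fibroblast and stellate list was 0.93. The fibroblast and stellate sums given beside Mgst1 were also lowest in KD replicate 3 and highest in LFD replicate 1, and their part in the Igfbp4 values was not tested. Of 11 other genes tested in the insulin-like growth factor system, edgeR called 0 and DESeq2 0 for KD against LFD, and 1 had an unadjusted p below 0.05 (Pappa, a protease that cleaves Igfbp4, at -0.75, SE 0.30, edgeR adjusted p = 0.171).

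Lmo4 encodes a LIM-only cofactor that bridges transcription factors. It was at 8.77, 10.8 and 6.38 CPM on LFD, at 4.30 and 5.36 on HFD, and at 16.8, 7.53, 11.8 and 6.63 on KD. Both HFD libraries lay below every other library. KD differed from LFD by 0.29 on the log2 scale (SE 0.32, edgeR adjusted p = 0.625). HFD differed from LFD by -0.84 (SE 0.39, edgeR adjusted p = 0.503), and KD from HFD by 1.13 (SE 0.38, edgeR adjusted p = 0.137). Gm43445, which overlaps Lmo4 on the same strand in GENCODE M21, held 6.14% as many counts. Leaving out KD replicates 1 and 3 turned the KD difference from LFD to -0.30, and the acinar score turned it to -0.26. Of 7 other LIM-only, LIM-homeodomain and LDB genes tested, edgeR called 0 and DESeq2 0 for KD against LFD, and 0 had an unadjusted p below 0.05, with a median of -0.06.

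Smad3, a transcription factor activated by TGF-beta receptors, was at 21.2, 27.7 and 15.0 CPM on LFD, at 13.2 and 8.21 on HFD, and at 30.2, 15.4, 15.9 and 9.41 on KD. The HFD libraries lay below all LFD libraries, and KD held the highest library of all. KD differed from LFD by -0.27 on the log2 scale (SE 0.36, edgeR adjusted p = 0.691). HFD differed from LFD by -0.99 (SE 0.44, unadjusted p = 0.0479, edgeR adjusted p = 0.496). Of 16 other TGF-beta pathway genes tested, edgeR called 1 higher and 1 lower on KD than on LFD, 7 had an unadjusted p below 0.05 (against 22.7% of all genes), and DESeq2 called 3. The gene called higher was Smad6, an inhibitory SMAD, which went from 3.89 ± 1.08 CPM (n = 3) to 9.30 ± 2.20 (n = 4), a log2 fold change of 1.25 (SE 0.25, edgeR adjusted p = 0.0243).

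**Figure D2:**
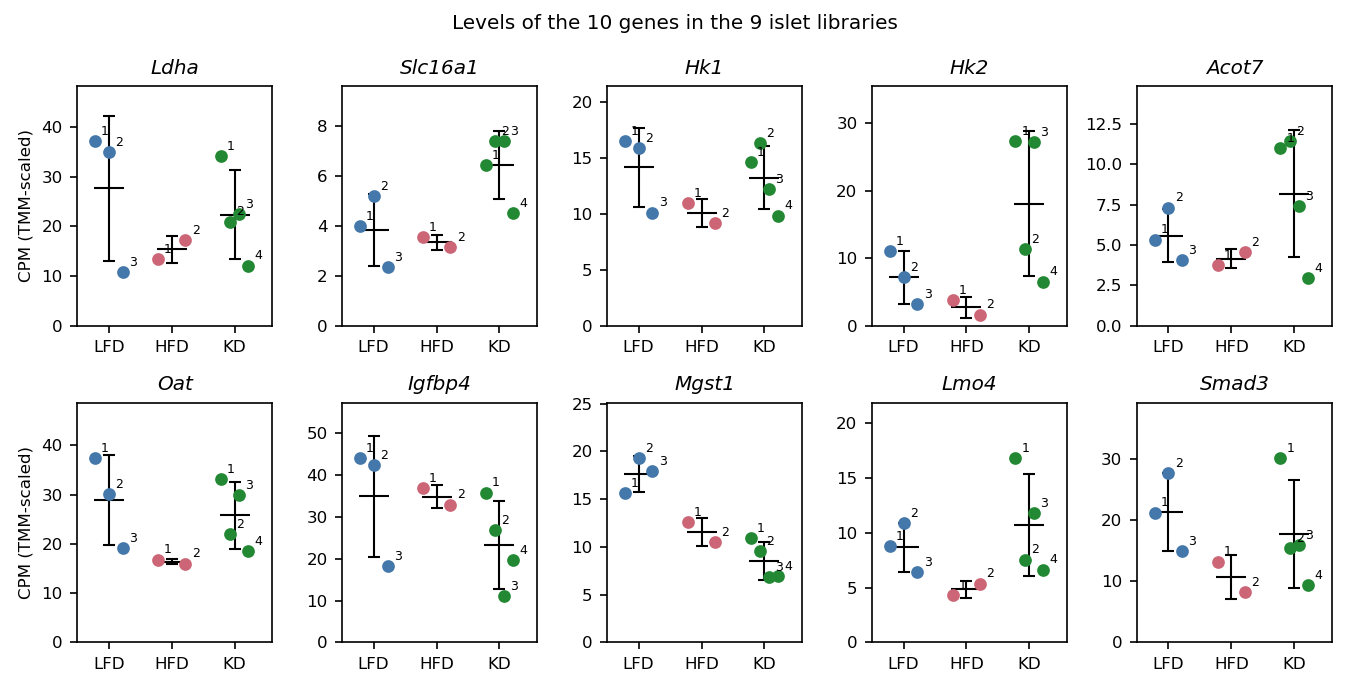
CPM on TMM-scaled library sizes (linear axes from 0) of each of the 10 genes by diet. Points are libraries with their replicate numbers, the horizontal line is the mean and the bar 1 SD. For Mgst1 every KD and HFD point lies below every LFD point, and for most genes LFD replicate 3 and KD replicate 4 are the lowest of their diets.

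The comparisons between diets share libraries, so their values are given side by side and not as separate evidence. For KD against LFD, 4 members lay above 0 and 6 below (51.9% of all genes lay below), with a median log2 fold change of -0.13 against -0.02 over all genes. That median ran from -0.34 without LFD replicate 3 to 0.041 without LFD replicate 1. It was -0.23 without KD replicate 1, -0.019 without LFD replicate 2 and -0.0016 without KD replicate 4. Besides Mgst1, Slc16a1 and Hk2 had an unadjusted p below 0.05, making 3 of 10 against 22.7% of all genes. Mgst1 alone did not overlap between the groups, against 10.1% of genes that did not overlap and were lower. Slc16a1 and Hk2, whose 95% intervals lay above 0 before adjustment, did not pass the adjusted threshold.

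For HFD against LFD, edgeR called 0 of the 10 members and 0% of all genes, and the DESeq2 Wald test called 0 members, against 1.45% of all genes. All 10 members were below 0, against 50.2% of all genes, with a median of -0.71 against -0.00175 over all genes. Without LFD replicate 2, Slc16a1 and Igfbp4 turned to 0.085 and 0.16, and Igfbp4 also turned without LFD replicate 1 (0.17) and without HFD replicate 2 (0.076). The unadjusted p was below 0.05 for 3 of the 10 (Oat, Mgst1 and Smad3), against 9.99% of genes. The groups did not overlap for 4 (Oat, Mgst1, Lmo4 and Smad3), all lower on HFD, against 14.1% of genes. The HFD libraries held more beta cell counts than any LFD library, and their acinar shares were 18.3% and 10.9% against 14.5% to 34.1% on LFD. With the acinar score in the model the median was -0.34, and with the lymphocyte score it was 0.30. Of the 12 lymphocyte genes, 11 were lower in both HFD libraries than in every LFD library. The model with that score thus cannot well separate score from diet.

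For KD against HFD, edgeR called 0 of the 10 members and 0% of all genes, whereas the DESeq2 Wald test called 2 members, against 9.92% of the 15297 genes to which it gave an adjusted p. These were Hk2 (2.74, DESeq2 adjusted p = 0.00143) and Lmo4 (1.159, DESeq2 adjusted p = 0.0401). The unadjusted p was below 0.05 in edgeR for 4 of the 10 (Slc16a1, Hk2, Oat and Lmo4), against 22.7% of genes. In CPM, the same 4 did not overlap between the groups and were higher on KD, against 15.7% of genes. Of the 10 members, 8 lay above 0 and 2 below (53.2% of all genes lay below), with a median of 0.69 against -0.04 over all genes. Acinar genes made up a larger share of counts in every KD library than in either HFD library, and with the acinar score in the model the members' median turned to -0.18. Of the 22 acinar genes, 17 were higher in every KD library than in both HFD libraries. The model can thus only partly separate that score from diet here, and no direction is read from it.

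**Figure D3:**
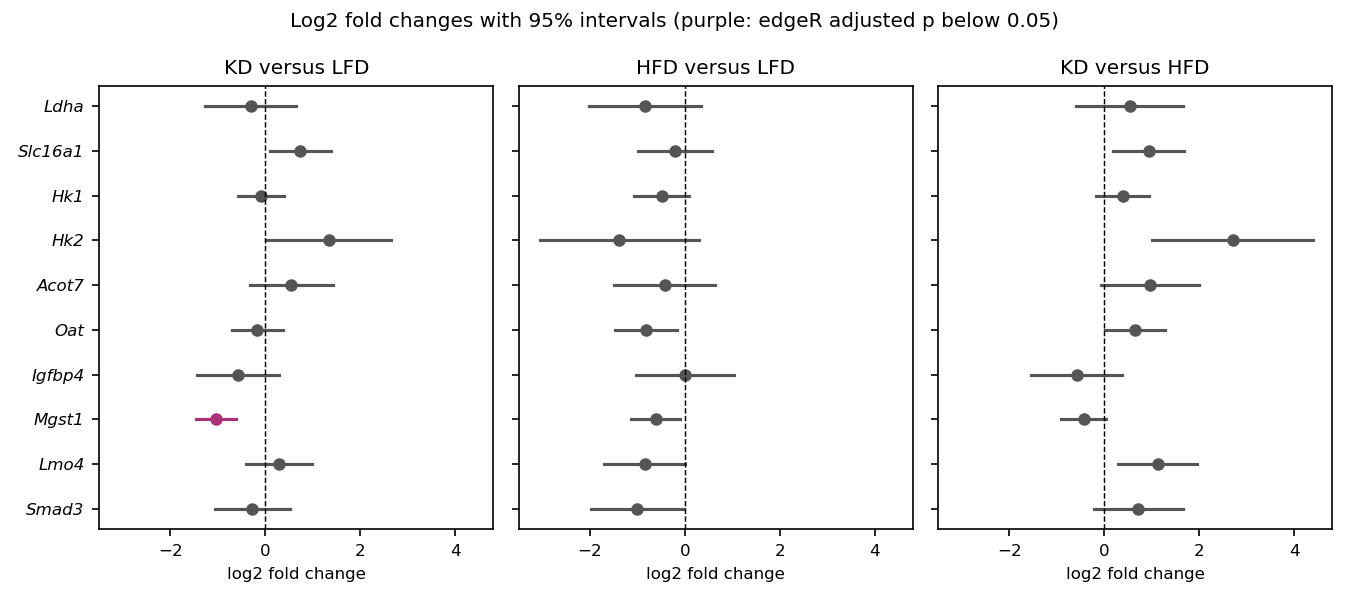
Log2 fold changes of the 10 genes with 95% intervals from edgeR for KD against LFD, HFD against LFD and KD against HFD. Only Mgst1 in KD against LFD, drawn in purple, passes the adjusted threshold of 0.05, at -1.04, and all 10 points lie below 0 in HFD against LFD.

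The members varied together between libraries of the same diet. LFD replicate 3 had the lowest CPM of its diet for 9 of the 10 members (all but Mgst1), and KD replicate 4 for 8 of the 10 (all but Igfbp4 and Mgst1). KD replicate 1 was the highest KD library for 7 members. Over the 9 libraries, Pearson r with the mean log2 CPM of the beta cell list ran from -0.90 (Oat) to -0.23 (Mgst1) over the 10 members. With the acinar list it ran from -0.34 (Mgst1) to 0.98 (Hk2). The 10 levels summed to 201, 201 and 107 CPM in LFD replicates 1 to 3, to 119 and 109 in HFD replicates 1 and 2, and to 220, 149, 152 and 97.1 in KD replicates 1 to 4. The 4 libraries with the largest beta cell shares, both HFD libraries, KD replicate 4 and LFD replicate 3, had the 4 lowest sums. They also had the 4 lowest acinar shares. This order depends on the scaling, since the sums are on TMM-scaled library sizes and the shares are of raw counts. As a share of raw counts, the members took 0.0135% to 0.0249% on LFD and 0.0146% to 0.0163% on HFD. On KD they took 0.00940% to 0.0126%, so the KD libraries were then the lowest. The part of islet purity in the diet differences was not tested beyond the models with an acinar or lymphocyte score.

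**Figure D4:**
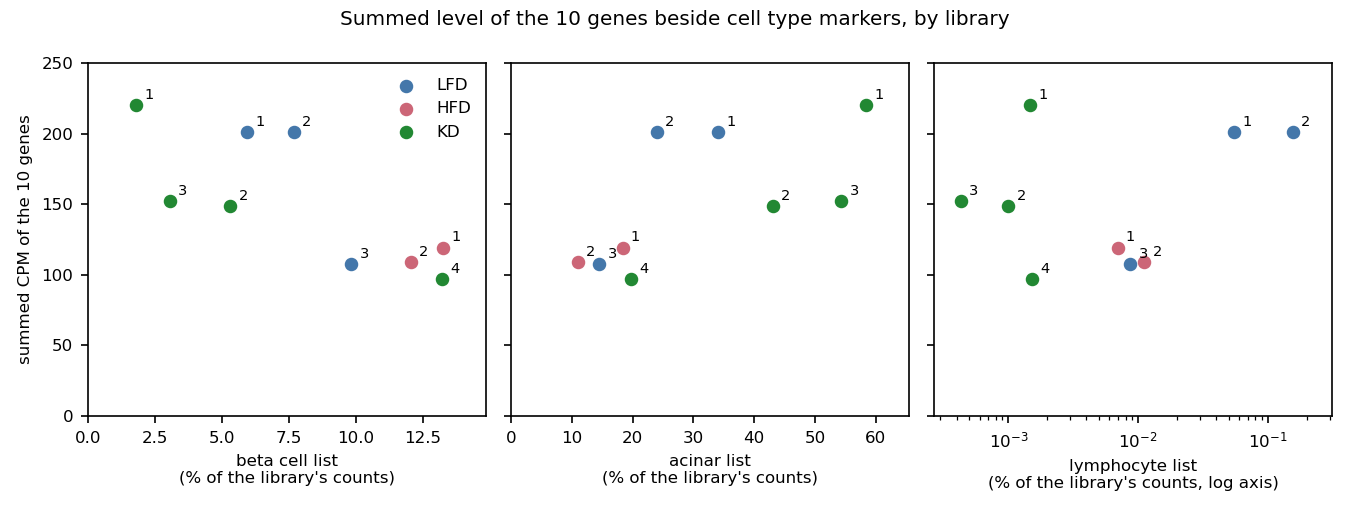
Summed CPM of the 10 genes in each library against the share of its counts from the beta cell, acinar and lymphocyte lists (percent; log axis for lymphocytes). Points are libraries, coloured by diet and numbered by replicate. The 4 libraries with beta cell shares of 9.84% or more have sums of 97.1 to 119 CPM, and the other 5 have sums of 149 to 220 CPM. The sums are on TMM-scaled library sizes and the shares are of raw counts. As a share of raw counts, the members are lowest in the KD libraries.

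With the acinar score in the model, edgeR called 3 members lower on KD than on LFD, against 7.54% of all genes called in either direction: Mgst1, Oat (-0.63, edgeR adjusted p = 0.0389) and Smad3 (-1.02, edgeR adjusted p = 0.0377). With the lymphocyte score 0 members were called by edgeR, 9 of the 10 lay above 0, and the median was 1.68. Because that score nearly follows diet, these values cannot well separate score from diet, and no direction is read from them. Mgst1 was below 0 in every model drawn in the plot of alternative models.

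**Figure D5:**
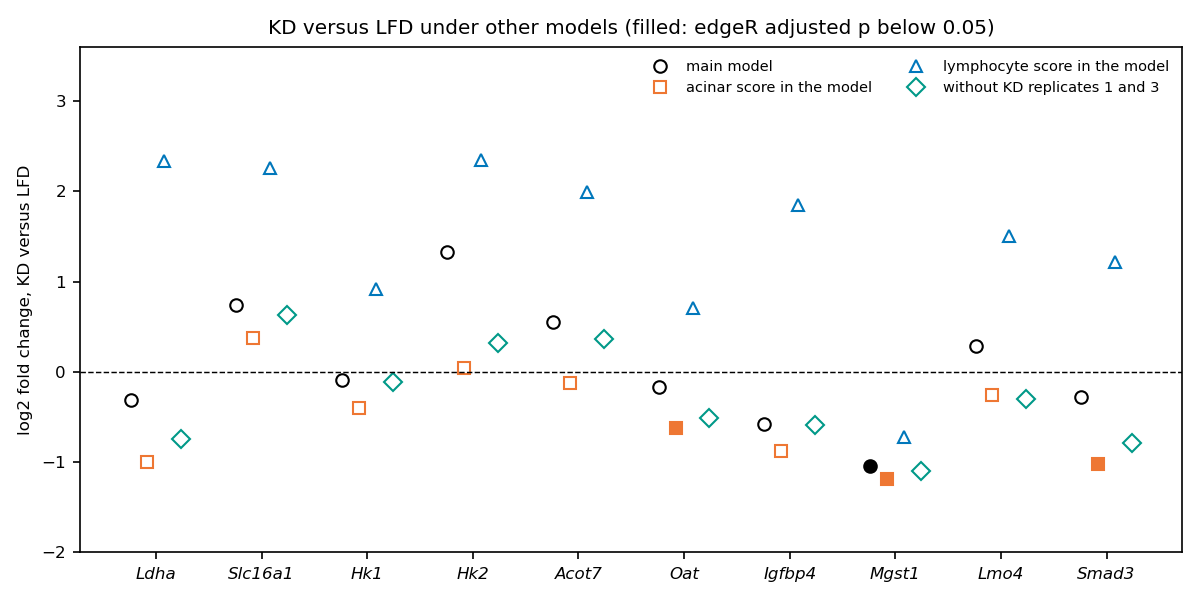
Log2 fold change of each member for KD against LFD in the edgeR model with diet alone (circles), with an acinar score (squares), with a lymphocyte score (triangles) and without KD replicates 1 and 3 (diamonds), filled where the adjusted p is below 0.05. Mgst1 lies between -1.18 and -0.72 in all 4, while Ldha runs from -1.001 to 2.34. The lymphocyte score (triangles) nearly follows diet, so that model cannot well separate score from diet.

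Of 14 other genes reported as disallowed in beta cells, edgeR called 2 lower and 0 higher on KD than on LFD, against 3.14% and 0.981% of all genes. An unadjusted p below 0.05 was found for 6, against 22.7% of all genes, and DESeq2 called 6. Fitting only the groups compared left 1 call in edgeR. Parp3, a nuclear ADP-ribosyltransferase, went from 4.43 ± 2.24 CPM (n = 3) to 1.38 ± 0.230 (n = 4), a log2 fold change of -1.69 (SE 0.37, edgeR adjusted p = 0.0307). Zfp36l1, an mRNA-decay factor, went from 54.2 ± 23.9 (n = 3) to 20.9 ± 4.48 (n = 4), a change of -1.38 (SE 0.29, edgeR adjusted p = 0.0282). The list's median was -0.61, with 11 of 14 below 0. For HFD against LFD edgeR called 0 of the 14, 6 had an unadjusted p below 0.05 (against 9.99% of all genes), DESeq2 called 1 (against 1.45%), 14 of 14 were below 0 (against 50.2%), and the median was -0.73. For KD against HFD edgeR called 0, 1 had an unadjusted p below 0.05 (against 22.7% of all genes), DESeq2 called 0 (against 9.92%), and the median was -0.11. With the lymphocyte score in the model, which cannot well separate that score from diet, the Parp3 and Zfp36l1 differences turned to 0.87 and 0.70. The calls of Parp3, Zfp36l1, Gsto1, Oaz1 and Smad6 for KD against LFD did not all hold when a library was left out. None of these 5 passed without LFD replicate 1 (edgeR adjusted p 0.0953 to 0.119) or without KD replicate 3 (0.0641 to 0.124). Leaving out KD replicate 2 ended 4 of the 5 calls, LFD replicate 2 and KD replicate 1 ended 3 each, each HFD replicate ended 2, LFD replicate 3 ended 1 and KD replicate 4 ended 0.

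The genes whose log2 CPM tracked a member most closely over the 9 libraries were taken from 10389 genes with a mean of at least 5 CPM, as the highest correlations among many. For Ldha these were Sh2b3 (Pearson r = 0.96, Spearman rho = 0.98), Arpc1b (0.95, 0.93) and Ifi27 (0.94, 0.90). For Slc16a1 they were Cox10 (0.98, 0.97), Prep (0.97, 0.95) and Pus1 (0.96, 0.93), and for Mgst1 Evc (0.97, 0.93), St3gal4 (0.97, 0.93) and Spon1 (0.95, 0.95). The points share library depth and cell makeup, so these values describe likeness only.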

How the data were processed

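The authors deposited raw counts per Ensembl gene, 1 column per library. Per the submitters' processing notes the tools were cutadapt 1.16, STAR 2.7.9a, featureCounts 1.6.3 and DESeq2 1.40.2 with build GRCm39 (mm39). Annotation and strand setting: not given in the sources used here. Per the labels' protocols, polyadenylated RNA was made into directional libraries, without molecular identifiers in the counts used here. Symbols were matched for 51948 of 56941 identifiers.

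edgeR 4.0.16 (R 4.3.3) with filterByExpr kept 18548 genes, holding at least 99.86% of each library's counts. TMM scaling, robust quasi-likelihood fits over all 9 libraries and two-sided Benjamini-Hochberg adjustment over all genes (threshold 0.05) were used. The SE is the log2 fold change over the square root of F. Log2 CPM used a prior count of 2. Length is the union of exons in GENCODE M21 (build GRCm38), not the counting build. The code was tested on simulated data. No libraries of a diet matched within sampling noise (chi-square per gene at least 24).

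Named genes were all 10 members, their close relatives, list genes past the threshold (otherwise up to 3 with the lowest p), the leading marker of lists cited and the 3 genes most like Ldha, Slc16a1 and any called member. Some genes that this rule names are not reported here. The members and lists were chosen with earlier results of these data known. Alternatives were the Wald test of DESeq2 1.42.0, its size factors, TMM without acinar and hormone genes, no low-count filter, only the groups compared, acinar or lymphocyte scores as covariates, the replicate number as a block, and leaving out each library. Leaving out KD replicates 1 and 3 was chosen after seeing the data.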

Additional observations from a re-analysis of the deposited data

How the results depend on the processing

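The number of members called was 1 for KD against LFD, 0 for HFD against LFD, 0 for KD against HFD and 1 in the joint test. It stayed so with DESeq2 size factors, TMM without acinar and hormone genes, no low-count filter and, for the 3 pairs of diets, only the groups compared. The cause of the changes listed here was not tested. The DESeq2 Wald test called 2 members for KD against HFD and 2 jointly, and its counts of genes called were 1773 (KD against LFD), 268 (HFD against LFD), 1518 (KD against HFD) and 2343 (joint), against 764, 0, 0 and 402 with edgeR. Without the low-count filter the genes called were 81, 316 and 1221 for the last 3 of these. Without KD replicates 1 and 3 the members called were 0 for KD against LFD and 0 jointly, the genes called 64 and 55, and Lmo4 turned to -0.30 for KD against LFD.

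For KD against HFD the acinar score can only partly be separated from diet. The acinar covariate gave 3 members and 1399 genes called for KD against LFD, 2 genes for KD against HFD and 909 jointly. It turned Acot7 to 0.043 (HFD against LFD), -0.16 (KD against HFD) and -0.12 (KD against LFD), Igfbp4 and Slc16a1 to 0.29 and 0.089 (HFD against LFD), Lmo4 and Slc16a7 to -0.26 and -0.14 (KD against LFD), and Hk1, Ldha, Oat and Smad3 to -0.15, -0.83, -0.19 and -0.49 (KD against HFD). The lymphocyte covariate nearly follows the difference of KD and HFD from LFD, so its values cannot well separate score from diet. The lymphocyte covariate gave 0 members and 0 genes for KD against LFD and jointly, and 97 genes for KD against HFD. For HFD against LFD it turned Acot7, Hk1, Igfbp4, Ldha, Lmo4, Slc16a1 and Smad3 to 0.77, 0.35, 2.04, 1.35, 0.16, 1.06 and 0.26. For KD against LFD it turned Hk1, Igfbp4, Ldha, Oat, Smad3, Parp3 and Zfp36l1 to 0.91, 1.85, 2.34, 0.70, 1.22, 0.87 and 0.70. The members' median moved to 0.30 (HFD against LFD) and 1.68 (KD against LFD) with the lymphocyte covariate, and to -0.18 (KD against HFD) with the acinar covariate.

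Same-numbered libraries of different diets did not all deviate together: of 7 pairs, 4 correlated above 0.1 (range -0.147 to 0.524). Among other-numbered pairs it was 6 of 19, and 4 of 8 libraries correlated best with their own number. The deviations of the 2 HFD libraries mirror each other, so these values are not independent. Whether the numbers pair the libraries cannot be told from them. With the replicate number as a block, 4 members were called for KD against LFD, 6 for KD against HFD and 6 jointly, with 2003, 395, 2320 and 2820 genes called for KD against LFD, HFD against LFD, KD against HFD and jointly. Hk1, Ldha and the members' median turned to 0.046, 0.047 and 0.046 for KD against LFD.

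Leaving out each library in turn gave 0 to 1 members called for KD against LFD, 0 for HFD against LFD, 0 to 3 for KD against HFD and 0 to 3 jointly, the 3 being without KD replicate 4. Genes called ran from 151 to 1348, 0 to 194, 0 to 1793 and 36 to 1827 in that order. Signs changed for Hk1 (-0.29 to 0.029), Lmo4 (-0.017 to 0.49) and Oat (-0.39 to 0.059) for KD against LFD, and for Igfbp4 (-0.31 to 0.17) and Slc16a1 (-0.46 to 0.085) for HFD against LFD. Of the 33 sign changes of members, 0 were past the threshold. With 2 HFD libraries and 40 to 946 counts per member and library, differences could have been missed. The smallest difference that could be detected was not estimated.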
